A study of Mus musculus with 12 samples.

Results

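Chemokines and their receptors other than the CXCR3 ligands were followed in sorted lung endothelial cells (ECs) during the growth of breast cancer metastases. The 35 genes were chosen as a list, 27 chemokines, 2 atypical receptors and 6 leukocyte receptors, out of 18193 genes with a probe set of their own. Of these 35 genes, 34 were measured, each by the probe set of highest mean among those annotated to that gene alone, and Ccl19 was not read because its only probe set is annotated to 10 gene symbols. Groups comprised ECs from immunodeficient NSG mice in 4 sets of 3 arrays. The control group was from healthy mice, and the others from mice 1, 2 or 3 weeks after tail vein injection of MDA231-LM2 cells, a lung-metastatic derivative of the human breast cancer line MDA-MB-231. Mice of all groups were NSG, and those injected were 6–8 weeks of age at injection. ECs were gated as CD31+ cells negative for CD45, CD11b, EpCAM, CD140a, CD140b and GFP. NSG mice lack mature T, B and NK cells, so leukocytes of the host are mostly myeloid, and the tumors were formed by injected cells of a single human line.

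Chemokines are small secreted proteins that bind G-protein-coupled receptors and direct the movement of leukocytes. ECs display them on surface glycosaminoglycans to rolling leukocytes, carry a few of them as membrane-bound forms, and remove others through atypical receptors that take up ligand without G-protein signaling. In the lung, the CCR2 ligands are known for drawing in monocytes, the CXCR2 ligands for drawing in neutrophils, and CXCL12 with its receptor CXCR4 for the upkeep of vessels.

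Values are log2 signals, on which a difference of 1 is a 2-fold change. A gene was termed expressed when its mean over the 12 arrays lay above the median of all values, 8.13, and dim otherwise. By this rule 15 of the 34 genes were expressed and 19 were dim, whereas 58.3% of all genes were expressed. Cxcl13, with a mean of 8.15, lay just inside this limit, and Cx3cr1, with 8.12, and Ccl17, with 8.11, lay just outside. Both membrane-bound chemokines and both atypical receptors were expressed, as were 5 of 9 homeostatic and lymphoid chemokines, 2 of 4 CXCR2 ligands, 2 of 7 other inflammatory CC chemokines, 1 of 4 CCR2 ligands and 1 of 6 leukocyte receptors. A dim probe set may lie near the background of the array, where a change in RNA is understated.

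The endothelial identity of the samples was clear, and the sort did not leave them free of other RNA. All 13 pan-endothelial markers were above the median in every group, and the sum of their signals lay between 16.75 and 16.83 at week 3 and between 16.73 and 16.80 in controls. Of 7 T and NK cell markers, none was above the median at week 3 or in controls, and none of 3 B cell markers was in any group. Other lists were well above background, among them 11 of 11 fibroblast markers in controls and 6 of 6 alveolar type 2 markers in every group. Values of such lists are given beside some of the chemokines. In bulk RNA, fewer cells of a type and less RNA per cell cannot be told apart.

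At week 3 against control, Cxcr4 and Ccl5 rose and Cxcl15 fell, and the other 31 genes did not pass the test (limma, adjusted p below 0.05 over all probe sets). The 2 rises are 5.88% of the 34 genes, against 2.38% of all genes, and the 1 fall is 2.94%, against 2.63% of all genes. At week 2 against control 0 of 34 passed, against 0.242% of all genes, and at week 1 against control 0 of 34 passed, against 0.0495%. Unadjusted limma p was below 0.05 for 11 of the 34 at week 3, 8 at week 2 and 6 at week 1. Among all 18193 genes it was below 0.05 for 3901, 1903 and 1633. The median log2 fold change of the 34 genes was 0.03 at week 1, 0.00 at week 2 and 0.15 at week 3, beside 0.05, 0.03 and 0.03 for all genes. The 3 arrays of a group and the 3 control arrays did not overlap for 8 genes at week 1 (23.5%), 8 at week 2 (23.5%) and 14 at week 3 (41.2%), where the shares of all genes were 16.1%, 17.7% and 30.0%. These 3 comparisons share the control arrays. Of the comparisons between weeks, week 3 against week 2 gave 3 rises (8.82% of the genes, 1.35% of all genes) and 0 falls (0.748% of all genes). Week 3 against week 1 gave 2 rises (5.88%, against 0.649%) and 0 falls (0.192% of all genes). Week 2 against week 1 gave 0 calls, as among all genes (0%). There an unadjusted p below 0.05 was found for 4 of the 34 and for 1192 of the 18193 genes.

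**Figure D1:**
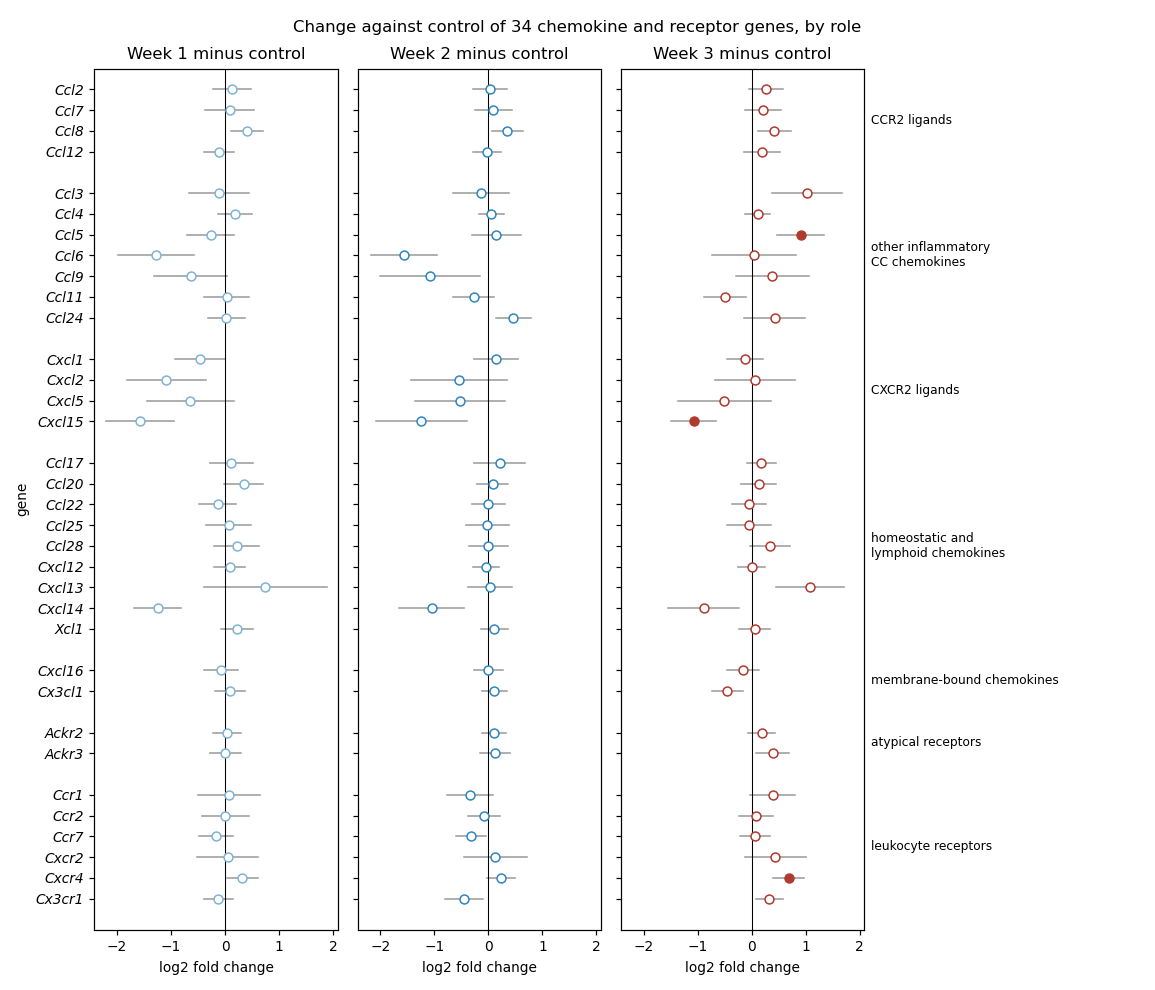
Log2 fold change of each of the 34 measured genes at weeks 1, 2 and 3 minus control (horizontal axes), in rows by role, with 95% confidence intervals from limma (n = 3 arrays a group); filled points have an adjusted p below 0.05. Only Ccl5, Cxcr4 and Cxcl15 are filled, all at week 3, and Ccl6, Cxcl14 and Cxcl15 stand to the left of 0 at weeks 1 and 2.

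Of the other inflammatory CC chemokines, 3 of 7 rose at week 3 against week 2, where 1.35% of all genes rose. Against week 1, 1 of 7 rose, where 0.649% of all genes did. Ccl5, Ccl9, Ccl6, Ccl3 and Ccl4 follow in this order in one stretch of chromosome 11 (order from the RefSeq annotation of GRCm38.p6). Ccl3, Ccl5 and Ccl6 rose at week 3 against week 2, and Ccl5 rose also against week 1 and against control. Ccl9 and Ccl4 passed against neither week. CCL3 and CCL5 are CCR1 ligands that attract monocytes and other leukocytes, and CCL6 and CCL9, found in rodents, are CCR1 ligands made mainly by macrophages and other myeloid cells.

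The start regions of 3 of these neighbors are shown because the genes rose, or stand between genes that rose, at week 3. They span the bases from 120 before to 30 after the start site, and capitals mark a match to the NF-κB motif on either strand. RefSeq sequences on GRCm38.p6 are given for Ccl3 (chr11:83649349-83649498, minus strand), Ccl6 (chr11:83593058-83593207, minus strand) and Ccl9 (chr11:83578607-83578756, minus strand).
Ccl3: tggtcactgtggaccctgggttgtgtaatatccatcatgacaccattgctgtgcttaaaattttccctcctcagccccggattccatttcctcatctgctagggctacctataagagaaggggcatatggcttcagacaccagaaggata
Ccl6: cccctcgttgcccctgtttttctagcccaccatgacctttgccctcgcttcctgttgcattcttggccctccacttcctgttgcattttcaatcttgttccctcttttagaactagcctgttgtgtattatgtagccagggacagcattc
Ccl9: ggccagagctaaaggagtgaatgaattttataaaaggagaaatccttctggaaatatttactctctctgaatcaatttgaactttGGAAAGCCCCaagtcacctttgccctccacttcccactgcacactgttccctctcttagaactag
The motif was searched in the full window of 250 bases before to 50 after the start. Ccl9 held 1 match, on the strand opposite to the gene at bases -35 to -26, and these letters were not found in the window of Ccl3 or Ccl6. Of the 35 genes 26 matched a promoter in this table, and 6 of the 26 (23.1%) held the motif, compared with 8.46% of all 32851 promoters in the table. Ccl5 was not among the 26, so its start region is not shown. A match describes the sequence and does not show binding.

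Ccl5, a ligand that attracts T cells, monocytes and eosinophils, had signals of 7.74, 7.60 and 7.07 in controls, 7.12, 7.24 and 7.25 at week 1, 7.54, 7.82 and 7.49 at week 2, and 8.43, 8.26 and 8.46 at week 3. The 3 arrays at week 3 were the highest of the 12, and none of the other 9 signals reached the median of all values. The log2 fold change at week 3 was 0.91 against control (SE 0.19, limma adjusted p = 0.0427), 0.76 against week 2 (SE 0.13, adjusted p = 0.0388) and 1.18 against week 1 (SE 0.12, adjusted p = 0.0137). The call against control was lost when any 1 of the 6 arrays was left out (fold change 0.71 to 1.05, adjusted p 0.0568 to 0.122), as was that against week 2 (0.70 to 0.87, adjusted p 0.0683 to 0.125). The call against week 1 was lost with any array omitted but week 1 replicate 2 and week 3 replicate 2 (1.14 to 1.24, adjusted p up to 0.0729). Such omissions lowered the calls among all genes too. At week 3 against control 330 to 503 genes were called instead of 912. Against week 2 it was 0 to 137 instead of 382, and against week 1 it was 0 to 52 instead of 153. The same limit applies to the omissions given below for other genes.

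Ccl3, a dim probe set, had signals of 7.69, 6.80 and 7.05 in controls, 7.09, 7.27 and 6.83 at week 1, 7.08, 6.98 and 7.07 at week 2, and 7.74, 8.49 and 8.39 at week 3. Each array at week 3 lay above all 9 others. Its rise at week 3 against week 2 was 1.16 (SE 0.20, limma adjusted p = 0.0416). The differences at week 3 against control, 1.02 (SE 0.28, adjusted p = 0.0952), and against week 1, 1.14 (SE 0.22, adjusted p = 0.0878), did not pass. The call against week 2 was kept without week 3 replicate 1 and lost without any other of the 6 arrays (1.02 to 1.39, adjusted p up to 0.126).

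Ccl6 had another course. Its signals were 10.39, 10.44 and 9.44 in controls, 8.86, 9.14 and 8.41 at week 1, 8.58, 8.54 and 8.46 at week 2, and 10.61, 10.15 and 9.65 at week 3. All 6 arrays of weeks 1 and 2 lay below all control arrays, and those of week 3 overlapped with control. Ccl6 rose at week 3 against week 2 by 1.61 (SE 0.23, limma adjusted p = 0.0269), and differed from control by 0.05 at week 3 (SE 0.33, 95% confidence interval -0.73 to 0.82). The differences from control were -1.56 at week 2 (SE 0.26, adjusted p = 0.102) and -1.29 at week 1 (SE 0.30, adjusted p = 0.193), neither of which passed. The call of week 3 against week 2 was kept without week 3 replicate 3 and lost without any other array (1.37 to 1.85, adjusted p up to 0.0934). A further probe set of Ccl6 gave -1.90 at week 2 and -1.09 at week 1 against control, and rose at week 3 against week 2 by 1.66 (adjusted p = 0.0238).

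Ccl9, which lies beside Ccl6, had means of 9.24 ± 0.57 in controls, 8.60 ± 0.31 at week 1, 8.16 ± 0.68 at week 2 and 9.62 ± 0.26 at week 3 (SD, n = 3 each). The difference at week 3 against week 2, 1.46 (SE 0.33, limma adjusted p = 0.0857), did not pass. A dimmer probe set of Ccl9 showed -0.14 at week 3 and -0.17 at week 2 against control, so the probe sets of this gene disagree. Ccl4, next to Ccl3, differed by 0.11 at week 3 against control (SE 0.10, 95% confidence interval -0.12 to 0.35), and stayed below the median on all 12 arrays. The CCR3 ligands Ccl11 and Ccl24, which attract eosinophils, were dim, with -0.49 (adjusted p = 0.154) and 0.43 (adjusted p = 0.367) at week 3 against control.

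**Figure D2:**
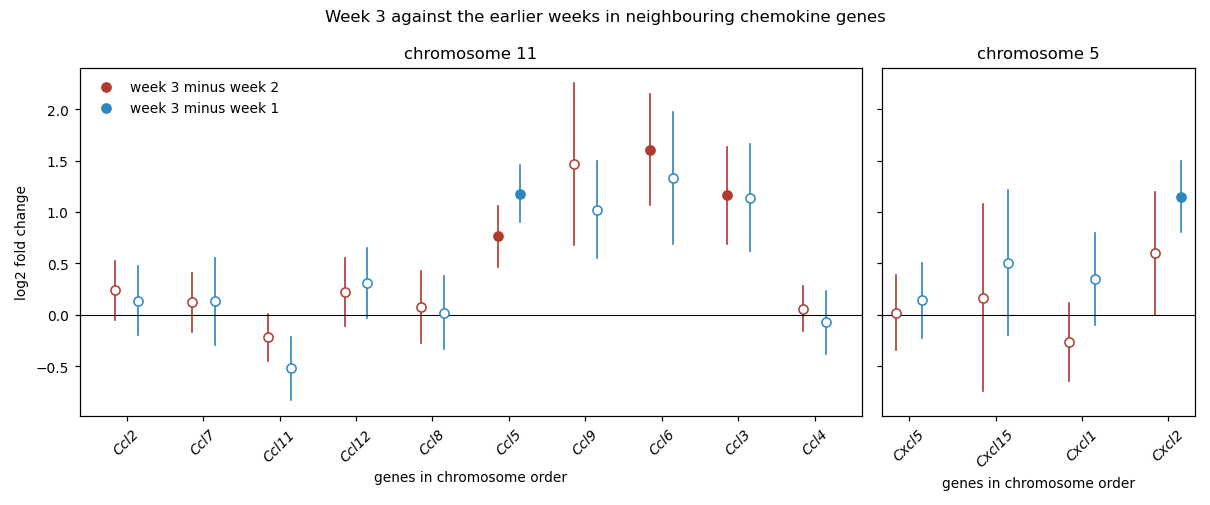
Log2 fold change of week 3 minus week 2 (red) and week 3 minus week 1 (blue) for chemokine genes in their order on chromosomes 11 and 5, with 95% confidence intervals (n = 3 arrays a group); filled points have an adjusted p below 0.05. Ccl5, Ccl9, Ccl6 and Ccl3 lie between 0.76 and 1.61, and their neighbor Ccl4 at 0.06 and -0.07. Ccl2, Ccl7, Ccl12 and Ccl8 lie between 0.02 and 0.31, and Ccl11 among them at -0.22 and -0.52.

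Of these ligands, Ccl6 and Ccl9 on their chosen probe sets had lower means at weeks 1 and 2 than at week 3 or in controls. Ccl3 and Ccl5 at week 3 lay above all controls. The mean sum of the monocyte and macrophage markers was also lower at weeks 1 and 2 than at week 3 or in controls. The same was seen in several other lists, among them pan-leukocyte, fibroblast and airway epithelium, so this course was not particular to the macrophage list. The sum over 10 monocyte and macrophage markers was 13.42 to 13.62 in controls, 12.47 to 12.93 at week 1, 12.29 to 13.21 at week 2 and 13.19 to 13.64 at week 3. Of the 10 markers, 9 were above the median at week 3 and 6 in every other group. C1qa and C1qb rose at week 3 against control, by 1.48 and 1.40, and Cd68 fell by 1.18. The sum over 10 pan-leukocyte markers was 12.45 to 12.81 in controls, 12.09 to 12.48 at week 1, 12.16 to 12.46 at week 2 and 12.82 to 12.92 at week 3. Ptprc, the gene for CD45, on which cells were sorted out, averaged 9.24 at week 3 and 8.84 in controls (limma adjusted p = 0.503). It averaged 8.19 at week 1 and 8.43 at week 2. Week 3 was higher without overlap, by 1.05 (adjusted p = 0.151) and 0.805 (adjusted p = 0.264), which did not pass. In each comparison of week 3, 1 of the 10 pan-leukocyte markers rose. This was Fcer1g against control (0.60) and week 2 (0.91), and Laptm5 against week 1 (1.44). The sum over 6 mast cell and basophil markers was 12.24 to 12.53 at week 3, against 11.79 to 12.09 in controls. The part of these cell types in the values of Ccl3, Ccl5, Ccl6 and Ccl9 was not tested.

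**Figure D3:**
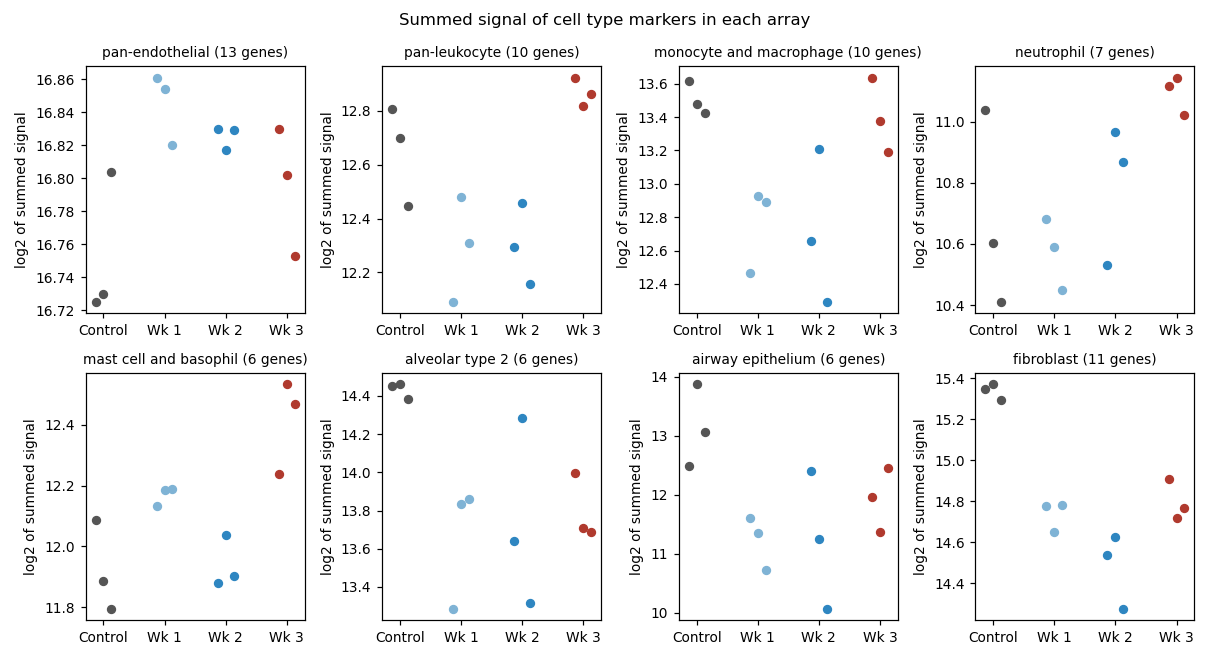
Log2 of the summed signal of 8 marker lists in each array (points; 3 a group, vertical axes differ), for control and weeks 1, 2 and 3. The leukocyte and macrophage lists have their lowest arrays at weeks 1 and 2, the alveolar type 2 list is highest in controls, and the endothelial list spans 16.73 to 16.86.

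The 4 CCR2 ligands, which recruit monocytes, did not pass in any comparison. Ccl2 was the expressed member, with means of 8.51 in controls, 8.64 at week 1, 8.54 at week 2 and 8.78 at week 3, and a difference of 0.27 at week 3 against control (SE 0.13, 95% confidence interval -0.05 to 0.58). Ccl7, Ccl8 and Ccl12 were dim, with differences between 0.19 and 0.42 at week 3. Ccl2, Ccl7, Ccl11, Ccl12 and Ccl8 form another group of neighbors on chromosome 11.

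Among the CXCR2 ligands, Cxcl15 fell at week 3 against control and Cxcl2 rose at week 3 against week 1. CXCL1, CXCL2 and CXCL5 attract neutrophils, and CXCL15, known as lungkine, is made by lung epithelial cells and is placed here for its action on neutrophils. Cxcl5, Cxcl15, Cxcl1 and Cxcl2 are neighbors on chromosome 5. The start regions of Cxcl2 and Cxcl1 are shown as those of the gene that rose and of its close relative, with the NF-κB motif in capitals and the same span as above, for Cxcl2 (chr5:90903779-90903928, plus strand) and Cxcl1 (chr5:90891125-90891274, plus strand).
Cxcl2: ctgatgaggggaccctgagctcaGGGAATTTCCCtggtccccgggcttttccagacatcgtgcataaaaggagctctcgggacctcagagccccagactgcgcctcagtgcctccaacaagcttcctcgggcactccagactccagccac
Cxcl1: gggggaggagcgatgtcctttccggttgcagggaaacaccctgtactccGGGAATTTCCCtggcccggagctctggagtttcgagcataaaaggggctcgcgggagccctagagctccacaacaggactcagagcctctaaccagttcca
Both hold the motif as GGGAATTTCC, starting at base -97 in Cxcl2 and at base -71 in Cxcl1, and a further match on the opposite strand overlaps it by all but 1 base. The run of letters that the 2 sequences share from the motif onward is 14 bases long.

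Cxcl2 had signals of 8.53, 7.31 and 7.39 in controls, 6.59, 6.51 and 6.85 at week 1, 7.77, 7.07 and 6.77 at week 2, and 7.78, 7.64 and 7.98 at week 3. The arrays of week 1 lay below those of week 3 and of control, and 1 control array was the only one of the 12 above the median of all values. Cxcl2 rose at week 3 against week 1 by 1.15 (SE 0.15, limma adjusted p = 0.0256), and the call was lost without any 1 of the 6 arrays (1.06 to 1.25, adjusted p 0.0615 to 0.109) and in the joint fit of all 12 arrays (adjusted p = 0.0913). It differed from control by 0.06 at week 3 (SE 0.32) and by -1.09 at week 1 (SE 0.31, adjusted p = 0.305). Cxcl1, an expressed gene with the same motif, had 8.67, 8.87 and 8.63 at week 3 and 8.77, 8.27 and 8.08 at week 1, which overlap, with a difference of 0.34 (SE 0.19, adjusted p = 0.505). Cxcl5 was dim, with differences between -0.65 and -0.51 from control at the 3 weeks and no call. Beside Cxcl2, the sum over 7 neutrophil markers was 10.41 to 11.04 in controls, 10.45 to 10.68 at week 1, 10.53 to 10.97 at week 2 and 11.02 to 11.14 at week 3. Unlike Cxcl2, this sum at week 1 lay within the range of controls. Of the 7 markers, 1 passed at week 3 against week 1, S100a8, which rose by 1.26 (limma adjusted p = 0.0393). The sum over 5 platelet markers was 11.09 to 11.42 at week 3, 10.25 to 10.40 at week 1 and 11.17 to 11.64 in controls. Over 10 monocyte and macrophage markers the sum was 12.47 to 12.93 at week 1. As for Cxcl2, this lay below controls (13.42 to 13.62) and week 3 (13.19 to 13.64). The part of these cell types in the value of Cxcl2 was not tested.

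Cxcl15 had signals of 11.61, 11.73 and 11.44 in controls, 9.44, 9.99 and 10.60 at week 1, 10.05, 11.24 and 9.75 at week 2, and 10.83, 10.17 and 10.54 at week 3. All 9 arrays from lungs with metastases lay below all 3 control arrays. It fell by 1.08 at week 3 against control (SE 0.18, limma adjusted p = 0.0243), and differed by -1.24 at week 2 (SE 0.36, adjusted p = 0.291) and by -1.58 at week 1 (SE 0.27, adjusted p = 0.0875). The call at week 3 was lost with any array omitted but replicates 1 and 2 of week 3 (-1.23 to -0.91, adjusted p up to 0.088). In the joint fit of all 12 arrays the fall at week 3 did not pass (adjusted p = 0.114). The difference at week 2 passed only when week 2 replicate 2, its highest array at that week, was left out (adjusted p = 0.0455), and leaving out any other array gave adjusted p of 0.337 to 0.507. A further probe set had -0.91 at week 1, -1.07 at week 2 and -0.95 at week 3 against control.

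The sums of alveolar type 2 and airway epithelium markers, as Cxcl15, were lower in all arrays from lungs with metastases than in controls. The sum over 6 alveolar type 2 markers was 14.38 to 14.46 in controls, 13.29 to 13.86 at week 1, 13.32 to 14.28 at week 2 and 13.69 to 14.00 at week 3, and week 2 replicate 2 was the highest of its group in this sum as in Cxcl15. Sftpc fell by 0.59 and Sftpa1 by 1.34 at week 3 against control. The sum over 6 airway epithelium markers was 12.49 to 13.86 in controls, 10.73 to 11.61 at week 1, 10.06 to 12.40 at week 2 and 11.36 to 12.46 at week 3. Within weeks 1 and 2 the arrays stood in another order in this sum than in Cxcl15. Week 1 replicate 1 was the highest of its group in the airway sum (11.61) and the lowest in Cxcl15 (9.44). At week 2 the airway sum was highest in replicate 1. At week 3, replicate 2 was lowest in the airway sum (11.36) and in Cxcl15 (10.17). The alveolar type 2 sum was lowest in replicate 3 of week 3 (13.69), and Cxcl15 was not. The sum over 5 alveolar type 1 markers was 13.17 to 13.37 in controls, 12.62 to 13.08 at week 1, 12.83 to 13.23 at week 2 and 12.30 to 12.64 at week 3. The part of epithelial RNA in the value of Cxcl15 was not tested.

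Of the homeostatic and lymphoid chemokines, none of the 9 measured passed on its chosen probe set. Cxcl14 at weeks 1 and 2 and Cxcl13 at week 3 did not overlap control and differed from it by more than 0.5. Cxcl14, a chemokine of epithelia and fibroblasts, had signals of 10.14, 10.79 and 10.65 in controls, 9.15, 9.29 and 9.38 at week 1, 9.08, 9.94 and 9.41 at week 2, and 10.21, 9.25 and 9.45 at week 3. Arrays of weeks 1 and 2 lay below all controls, and 1 array of week 3 reached into their range. The differences were -1.25 at week 1 (SE 0.18, limma adjusted p = 0.0639), -1.05 at week 2 (SE 0.25, adjusted p = 0.217) and -0.89 at week 3 (SE 0.28, adjusted p = 0.133). On a further, dimmer probe set Cxcl14 fell by 1.51 at week 3 (adjusted p = 0.011). The sum over 11 fibroblast markers was 15.29 to 15.37 in controls, 14.65 to 14.78 at week 1, 14.28 to 14.62 at week 2 and 14.72 to 14.91 at week 3, and 4 of the 11 fell at week 3. Pdgfra, the gene for CD140a, on which cells were sorted out, fell by 2.25 at week 3, where the median of the 11 was -0.36. The list was not uniform. Col1a1 averaged 12.044 at week 3 and 11.865 in controls, and 2 of the 11, Col1a1 and Mfap5, rose at week 3 against week 2. The part of fibroblast RNA in the value of Cxcl14 was not tested.

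Cxcl13, the CXCR5 ligand that guides B cells, had signals of 7.74, 7.85 and 7.46 in controls, 9.40, 8.68 and 7.20 at week 1, 7.38, 7.84 and 7.90 at week 2, and 9.33, 8.76 and 8.21 at week 3. Arrays at week 3 lay above all controls, and those at week 1 ranged from below to above them. The difference at week 3 against control was 1.08 (SE 0.27, limma adjusted p = 0.0762), and of the 6 omissions of an array only that of week 3 replicate 3, its lowest at that week, made it pass (adjusted p = 0.0403, the others 0.115 to 0.181). A dimmer probe set of Cxcl13 rose at week 3 against control by 1.61 (adjusted p = 0.0364). Ccl17 and Ccl22, the CCR4 ligands, Ccl20, the CCR6 ligand, Ccl25 and Ccl28, ligands of CCR9 and CCR10, and Xcl1, the XCR1 ligand, differed from control by -0.05 to 0.34 at week 3 with no call. Further probe sets of Ccl28 disagreed, with 0.65 and -0.27 at week 3 and no call.

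**Figure D4:**
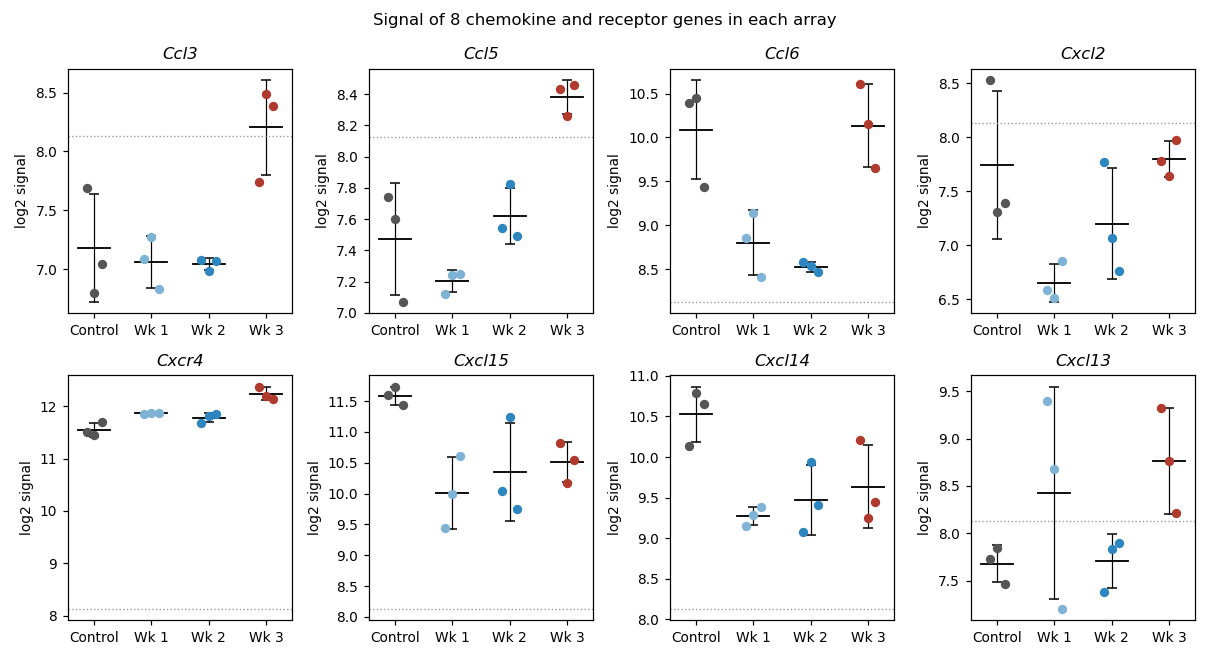
Log2 signal of 8 genes in each array (points, 3 a group) at control and weeks 1, 2 and 3, with the mean and SD (black; vertical axes differ) and the median of all values (dotted, 8.13). Ccl3 and Ccl5 are highest at week 3, Ccl6 is lower at weeks 1 and 2 than at week 3 or in controls, Cxcr4 is highest at week 3, and Cxcl15 is highest in controls.

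Within the CXCL12 axis, the receptor Cxcr4 rose whereas its ligand Cxcl12 did not pass in any comparison. CXCR4, which is carried by leukocytes and by sprouting ECs, was the expressed member of the leukocyte receptors. Cxcr4 had signals of 11.50, 11.45 and 11.70 in controls, 11.86, 11.88 and 11.87 at week 1, 11.69, 11.81 and 11.85 at week 2, and 12.37, 12.19 and 12.14 at week 3. Arrays at week 3 were above all 9 others, and those at week 1 were above all controls. The log2 fold change at week 3 against control was 0.69 (SE 0.12, limma adjusted p = 0.0281), compared with 0.23 at week 2 (SE 0.11, adjusted p = 0.525) and 0.32 at week 1 (SE 0.12, adjusted p = 0.469). Week 3 exceeded week 2 by 0.46 (SE 0.11, adjusted p = 0.0945) and week 1 by 0.37 (SE 0.12, adjusted p = 0.247), which did not pass. The call was kept without control replicate 3 and lost without any other array (0.62 to 0.76, adjusted p up to 0.0931).

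Cxcl12 averaged 13.07 ± 0.07 at week 3 and 13.07 ± 0.11 in controls (SD, n = 3 each), a difference of 0.00 with a 95% confidence interval of -0.25 to 0.25. Its other 2 probe sets gave -0.06 and 0.20 at week 3. At week 1 they gave 0.325 and 0.319 against control, without overlap but with no call (limma adjusted p = 0.473 and 0.556). On the dimmer of them, week 3 was 0.41 above week 2 (adjusted p = 0.152). Week 2 against week 1 gave -0.53 there (adjusted p = 0.394). Ackr3, the atypical receptor that takes up CXCL12, had 12.41, 12.67 and 12.63 at week 3 and 12.29, 12.24 and 12.03 in controls, with no overlap and a difference of 0.39 (SE 0.13, limma adjusted p = 0.145). Ackr2, which removes inflammatory CC chemokines, differed by 0.18 at week 3 (SE 0.11, adjusted p = 0.382). Its further probe sets gave 0.35, without overlap (adjusted p = 0.132), and 0.23 (adjusted p = 0.384).

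The membrane-bound chemokines are expressed by ECs. Cx3cl1, or fractalkine, which captures cells bearing CX3CR1, had 10.92, 10.94 and 10.65 at week 3 and 11.31, 11.20 and 11.36 in controls. Arrays of week 3 lay below those of every other group, but the differences did not pass against control (-0.45, SE 0.12, limma adjusted p = 0.0924), week 2 (-0.56, SE 0.12, adjusted p = 0.0677) or week 1 (-0.54, SE 0.13, adjusted p = 0.147). Of its other 3 probe sets, 2 gave -0.48 and -0.80 at week 3 against control and the other gave 0.00. Its receptor Cx3cr1, carried by monocytes, was dim, with 8.45, 8.62 and 8.46 at week 3 and 7.62, 8.04 and 7.53 at week 2, a difference of 0.78 (SE 0.15, adjusted p = 0.0598). On a further, dimmer probe set Cx3cr1 rose at week 3 against week 2 by 0.68 (limma adjusted p = 0.0429). Cxcl16, the CXCR6 ligand, differed by -0.16 at week 3 against control (SE 0.12, 95% confidence interval -0.46 to 0.13). The remaining receptors Ccr1, Ccr2, Ccr7 and Cxcr2 guide monocytes, dendritic cells and neutrophils. On their chosen probe sets they stayed below the median on all 12 arrays and differed from control by 0.07 to 0.44 at week 3, with no call. Further probe sets gave -0.34 for Ccr1 and 0.03, -0.30 and 0.25 for Ccr2, also with no call.

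Other genes of the chemokine system were counted from a list of 45, of which 39 were measured. At week 3 against control 5 of 39 rose and 2 fell, where 2.38% of all genes rose and 2.63% fell. The median log2 fold change was 0.08, beside 0.03 for all genes. Of the 5 rises, 3 were those of the CXCR3 ligands Cxcl10, Cxcl9 and Cxcl11, by 2.77, 1.84 and 1.00. Ackr1, the atypical receptor of venous ECs, rose by 1.62, and Cmtm7, a chemokine-like factor family gene, by 0.62. Ccrl2, a receptor without G-protein signaling, fell by 0.84, and Hs2st1, which sulfates heparan sulfate, fell by 0.54. At week 2 against control 2 of 39 rose, Cxcl10 by 2.07 and Cxcl9 by 1.68 (0.242% of all genes called). At week 1 against control 1 of 39, the platelet chemokine gene Ppbp, fell by 1.48 (0.0495% of all genes called). At week 3 against week 1, Ppbp, Pf4 and Cxcl10 rose by 1.63, 1.54 and 2.06 (0.649% of all genes rose). At week 3 against week 2, Cxcl10 and Cmtm7 rose by 0.71 and 0.82 (1.35% of all genes rose).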

How the data were processed

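The deposited values are log2 signals, 1 per probe set and array. The authors hybridised total RNA of sorted ECs, amplified from picogram amounts, to Affymetrix GeneChip mouse arrays and normalized them by robust multiarray average in Chipster, per the methods of the study. They were used as deposited. Of 45101 probe sets, 64 array controls were left out. Of the other 45037, 34945 carry 1 gene symbol in the platform annotation, 932 more than 1 and 9160 none. Each gene was represented by its single-symbol probe set of highest mean over 12 arrays. Each pair of groups was fitted on its own in limma 3.58.1 (R 4.3.3), after the empirical Bayes test of the methods, with Benjamini-Hochberg adjustment over all 45037 probe sets. The script was tested on simulated data. Summed marker signals are the log2 of summed linear signals. The 3 arrays of a group are labelled as biological replicates, and this number limits the precision.

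The members and gene lists were chosen with earlier results of these data known. Every gene that passed, and every expressed gene whose arrays at a week did not overlap control with a difference of 0.5 or more, was given with all arrays. Same-numbered arrays did not deviate together, so no pairing was used. Promoter sequences are RefSeq's on GRCm38.p6. Tables and plots were made in Python 3.11.15 with pandas 2.3.3, numpy 2.4.6 and matplotlib 3.10.9.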

Additional observations from a re-analysis of the deposited data

Results flagged for a closer look

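Changes at week 3 differed from those at the earlier weeks for 4 genes, by the test of the weeks themselves, which is also the difference of their changes against the shared controls. Between week 3 and week 2, Ccl6 differed by 1.61, Ccl3 by 1.16 and Ccl5 by 0.76 on the log2 scale, each higher in 3 of 3 arrays of week 3 than in all arrays of week 2. Between week 3 and week 1, Ccl5 differed by 1.18 and Cxcl2 by 1.15, each again higher in all 3 arrays of week 3. Adjusted p-values (limma) were between 0.0137 and 0.0416.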

How the results depend on the processing

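The alternatives moved the counts of calls. The 26 differences followed were those that passed in at least 1 setting, and several alternatives leave a fold change as it is. That 0 of 358 alternative values changed sign therefore cannot show how stable the directions are. Of the 34 genes, 3 passed at week 3 against control, 3 at week 3 against week 2 and 2 at week 3 against week 1. Of all 18193 genes, 912, 382 and 153 passed, and 44 and 9 at weeks 2 and 1 against control. With trended and robust variance, 5, 6 and 7 passed, and 1 at week 2 and 2 at week 1 against control. All-gene counts were then 1227, 776 and 435, and 115 and 188. With the mean of the probe sets of a gene, 5, 6 and 4 passed, and 1 each at weeks 2 and 1 against control. All-gene counts were then 1426, 713 and 368, and 134 and 181. In one fit of all 12 arrays, 7 passed at week 3 against week 2 and 4 against week 1, beside 605 and 530 of all genes. With probe sets above the median in at least 3 arrays, 18 of the genes remained tested. Of these, 2 passed at week 1 against control and 1 at week 3 against week 1, beside 138 and 222 of all 11381 genes left. With the replicate number as a block, 0 passed in these 3 comparisons and 378 of all genes were called at week 3 against control (912 without the block), 0 against week 2 (382) and 3 against week 1 (153). Samples share only the number: deviations of same-numbered arrays correlated between -0.104 and 0.065 over 18 pairs. Leaving out 1 array gave 0 to 1 calls at week 3 against control, week 2 and week 1, 0 to 1 at week 2 against control and 0 at week 1 against control. All-gene counts were then 330 to 503, 0 to 137 and 0 to 52, and 0 to 26 and 0 to 6. Week 2 against week 1 had 0 calls under every alternative. Normalizing again, centring and leaving out shared probe sets kept each count within 1.5 times. The cause of these shifts was not tested.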

Other observations

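Ccl8, a monocyte chemoattractant that in mice also acts through CCR8, was dim yet had the same direction at each week. Its signals were 6.93, 6.97 and 7.04 in controls, 7.30, 7.56 and 7.29 at week 1, 7.53, 7.27 and 7.18 at week 2, and 7.54, 7.16 and 7.51 at week 3. All 9 arrays from lungs with metastases lay above all 3 control arrays, with differences of 0.40 at week 1, 0.35 at week 2 and 0.42 at week 3, none of which passed (limma adjusted p = 0.354, 0.373 and 0.133).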
